A study of Mus musculus with 8 samples.

Results

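Integrins are the transmembrane receptors by which cells hold on to extracellular matrix, and focal adhesion proteins tie their short cytoplasmic tails to actin. The group described here was fixed by name as 31 mouse genes, 21 integrin subunits and 10 cytoplasmic focal adhesion genes. It was chosen with earlier results of these data known, so its shares beside those of all genes only describe it. A gene was taken as measured where the platform annotation gives a probe set that symbol and no other. By that rule 30 of the 31 genes were measured, each by 1 probe set, out of 19938 genes on the arrays, and Ptk2, the focal adhesion kinase, was not analysed here. All 21 integrin subunits were among the 30, 13 alpha and 8 beta. Expression was measured on 8 Affymetrix whole-transcript arrays, and the tissue was brain cortex taken at embryonic day 16 from mice of mixed strain background. In 4 of the arrays, called VEGF-labelled here, the embryos were GFAP-tTA: TetO-VEGF-A164 bitransgenics, in which a tetracycline-controlled transactivator (tTA) under the Gfap promoter, active in astroglia and radial glia, drives the TetO-linked VEGF-A transgene. The 4 control arrays were of wild-type embryos without TetO-VEGF-A164. Whether any control carried GFAP-tTA is not stated, so effects of VEGF-A, the transactivator and the transgene insertions cannot be told apart. The question of the comparison is how expression in the embryonic cortex differs when VEGF-A, the main growth factor for blood vessels, is overexpressed.

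An integrin is a pair of 1 alpha and 1 beta chain. The alpha chain largely sets the ligand (collagens, laminins, or proteins with the Arg-Gly-Asp motif, RGD, such as fibronectin and vitronectin), and the beta tail recruits talin and kindlin, which switch the receptor on. ILK and parvin then carry the link to actin, and paxillin, vinculin, zyxin and alpha-actinin build the adhesion plaque. In the embryonic cortex integrins anchor the endfeet of radial glia, the neural stem cells, to the basement membrane at the brain surface and along vessels. The pair of alpha-v and beta-8 on radial glia activates latent TGF-beta and is needed in mice for intact brain vessels.

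The values are log2 expression relative to each probe set's median over the 8 arrays, so no absolute level is kept and whether a gene is expressed in the cortex at all cannot be read from them. Because of that centring 4 arrays lie above 0 and 4 below for every member, and where the groups do not overlap 0 falls between them. The log base is taken as 2 from the range of the values and is not stated. Vegfa, the gene of the transgene, differed by 0.053 with an SE of 0.0506 (limma, adjusted p = 0.748), so it does not check the labels. Array medians lay between -0.0091 and 0.0055 in the VEGF-labelled arrays, against -0.0035 and 0.015 in control. By Xist and Y-linked genes VEGF 2, VEGF 3 and control 3 had a female pattern and the other arrays a male one. Nothing in the labels says whether arrays came from separate embryos or litters, so the spread behind each p-value is that between these 8 arrays and may be technical. In such tissue samples fewer cells of a type and less RNA per cell cannot be told apart.

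The alpha-v subunit Itgav, the adhesion activator Tln1 (talin 1) and the ILK partner Parva (alpha-parvin) were higher in all 4 VEGF-labelled arrays than in any control array. Their differences, VEGF-labelled minus control, were 0.32, 0.12 and 0.11 on the log2 scale. The other 27 members overlapped between the groups, among them all 8 beta subunits. With limma, 0 of the 30 members passed an adjusted p of 0.05 over all 19938 genes, as did 0 genes in all (0% of those tested). At an unadjusted p under 0.05 there were 3 members higher and 0 lower, against 4.62% of all genes higher and 7.84% lower. The same 3 members were those without overlap between the groups, a pattern shown by 2.13% of all genes in the higher direction and 4.71% in the lower. Of the 30 members 18 (60%) had a positive difference, against 43.3% of all genes, and 12 a negative one. Their median difference was 0.024, against -0.01 over all genes, and it was -0.01 once the thalamus marker mean was added as a covariate. With 1 array left out the median difference over members was 0.0046 to 0.032, and the values without VEGF 1 (0.0046), control 4 (0.0061), control 1 (0.0071), VEGF 2 (0.012), control 3 (0.012) or VEGF 4 (0.013) were smaller by more than 1.5 times. The members' median absolute difference was 0.051, against 0.046 over all genes.

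**Figure D1:**
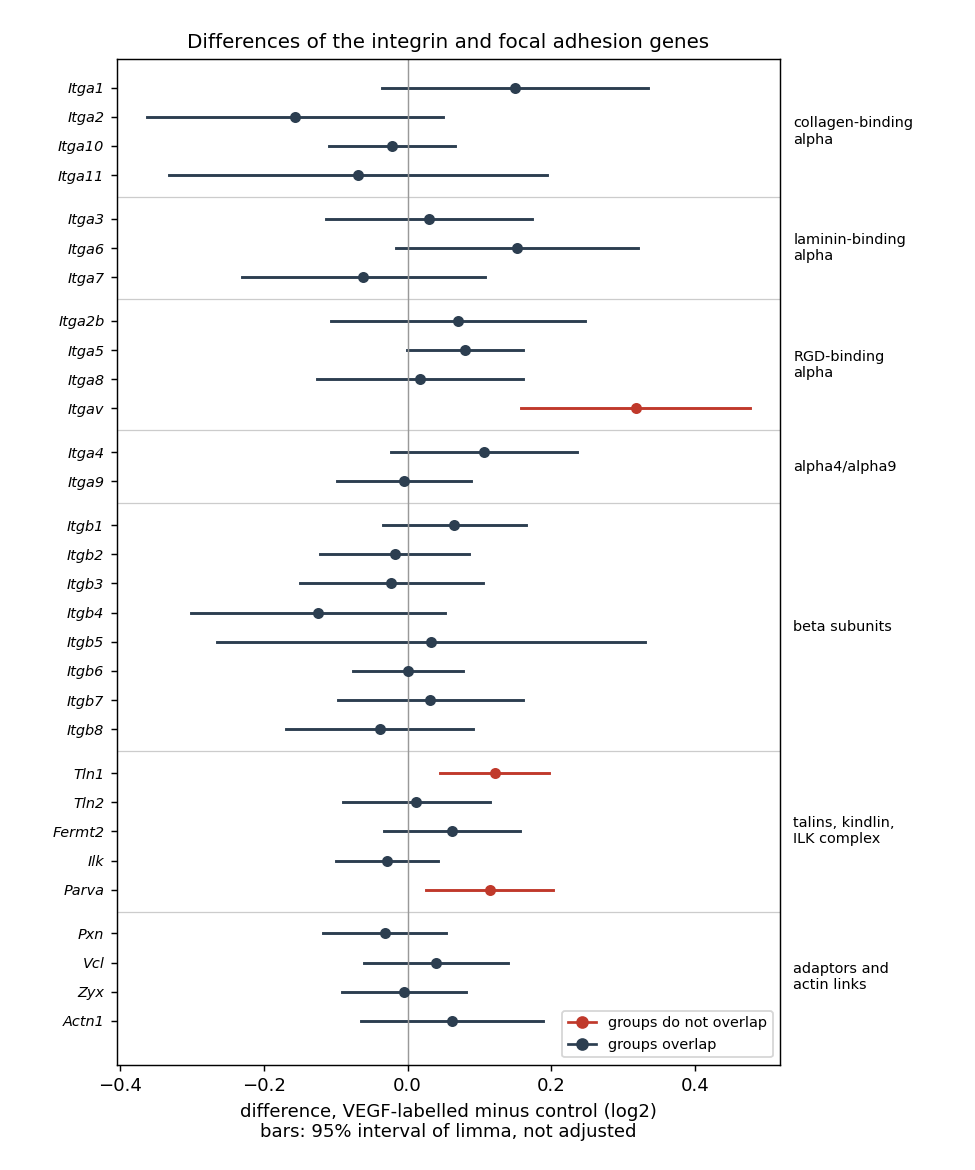
Difference between the means of 4 VEGF-labelled and 4 control arrays (x axis, log2) for each of the 30 members (rows, by role), with limma's unadjusted 95% intervals as bars. The intervals of Itgav, Tln1 and Parva, in red, lie above 0, and those of the other 27 members include it.

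**Figure D2:**
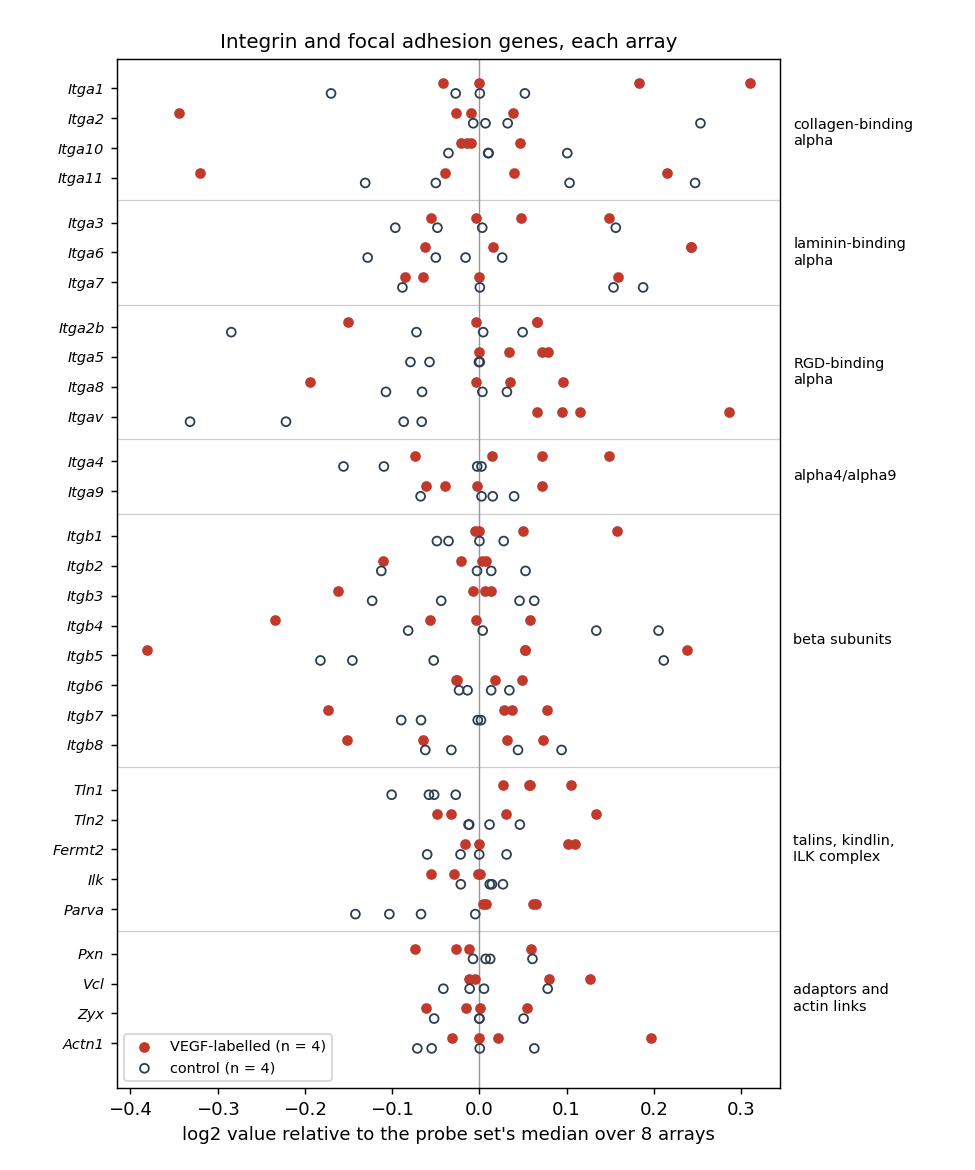
Value of every array for the 30 members (x axis, log2 relative to the probe set's median), with filled points for VEGF-labelled and open points for control arrays. The filled points stand clear of the open ones in Itgav, Tln1 and Parva, and Itgb5 spreads most, over 0.62.

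Among the alpha chains that bind RGD proteins, Itgav stood apart. It is the common partner of Itgb1, Itgb3, Itgb5, Itgb6 and Itgb8 in the fibronectin, vitronectin and latent TGF-beta receptors. Itgav was at 0.12, 0.066, 0.29 and 0.095 in VEGF 1 to VEGF 4, against -0.33, -0.087, -0.066 and -0.22 in control 1 to control 4. VEGF 3 was the highest array and control 1 the lowest, and the arrays nearest to the other group were VEGF 2 and control 3. The mean was 0.14 ± 0.099 in the VEGF-labelled arrays and -0.18 ± 0.12 in control (SD, n = 4 each). The difference of 0.32, or 1.25-fold, had a 95% interval of 0.16 to 0.48 (limma, unadjusted p = 0.0014, adjusted p = 0.243). An exact permutation test, two-sided, gave p = 0.0286, the smallest that 4 against 4 arrays allow. Groups that do not overlap always give this value, so for Itgav, Tln1 and Parva it adds nothing to the lack of overlap. Of 14 radial glia markers 9 were higher and 5 lower. Their list means were -0.0034 to 0.099 in the VEGF-labelled arrays, against -0.088 to 0.01 in control, and overlapped. The part of radial glia in Itgav was not tested. These means overlapped only through VEGF 1 and control 3, so as a covariate the list mean shares much of the contrast between the groups. A difference that shrinks with it, here or below, therefore does not show the part of radial glia. As a covariate that list mean lowered the count of all genes at an unadjusted p under 0.05 in limma from 2484 to 1078. With that list mean as a covariate the Itgav difference was 0.13 (limma, unadjusted p = 0.118), and the part of radial glia in Itgav was not tested. With the endothelial list mean as a covariate the Itgav difference was 0.29, and with the 3 female-pattern arrays left out 0.32.

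The stretches before the annotated start sites of Itgav and Tln1 are shown because these members had the smallest unadjusted p. Each line holds the 250 bases upstream of the start, 5′ to 3′ on the gene's strand, from RefSeq for GRCm38.p6. That of Itgav is chr2:83724147-83724396 (+), with 64.4% G and C, and that of Tln1 is chr4:43562584-43562833 (-), with 55.6%. The capitals mark CGGAAGT, letters that ETS family factors are known to bind, which begin at -55 in Itgav and -51 in Tln1, counted from the start.
Itgav: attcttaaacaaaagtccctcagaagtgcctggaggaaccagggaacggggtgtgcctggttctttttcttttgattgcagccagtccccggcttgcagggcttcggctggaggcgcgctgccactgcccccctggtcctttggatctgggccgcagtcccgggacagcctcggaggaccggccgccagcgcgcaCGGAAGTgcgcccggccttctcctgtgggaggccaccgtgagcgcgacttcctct
Tln1: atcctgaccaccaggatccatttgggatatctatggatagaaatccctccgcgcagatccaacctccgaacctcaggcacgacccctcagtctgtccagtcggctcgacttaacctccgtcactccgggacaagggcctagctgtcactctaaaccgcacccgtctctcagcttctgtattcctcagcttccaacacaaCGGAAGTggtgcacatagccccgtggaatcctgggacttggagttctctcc
Stretches were held for 22 of the 31 genes, 25 in all as some genes have several starts, and Parva was not among them. Itgav and Tln1 held the 2 of the 25 stretches with CGGAAGT on either strand, which 4.92% of all 32851 promoter stretches of this length hold. This motif was chosen after both sequences had been seen. Of 1197 genes tested that hold it, 6.77% were higher at an unadjusted p under 0.05 in limma, against 4.79% of the 15614 genes tested with a promoter stretch. Higher without overlap were 2.76%, against 2.22%, and the median difference was -0.0034, against -0.01. Itgav and Tln1 are themselves among the 1197, and genes in the lower direction were not counted for this motif. Whether ETS factors act on these genes was not tested. The other motifs searched were the GC box GGGCGG (11 of the members' 25 stretches, 32.7% of all stretches), CCAAT (4 of 25, 33.8%), TATAAA (0 of 25, 12.4%), the TEAD letters GGAATG (3 of 25, 12.6%) and the AP-1 letters TGANTCA (1 of 25, 6.75%). Neither Itgav nor Tln1 held any of these 5. All 6 motifs were read on both strands, and a match is a description of the letters.

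**Figure D3:**
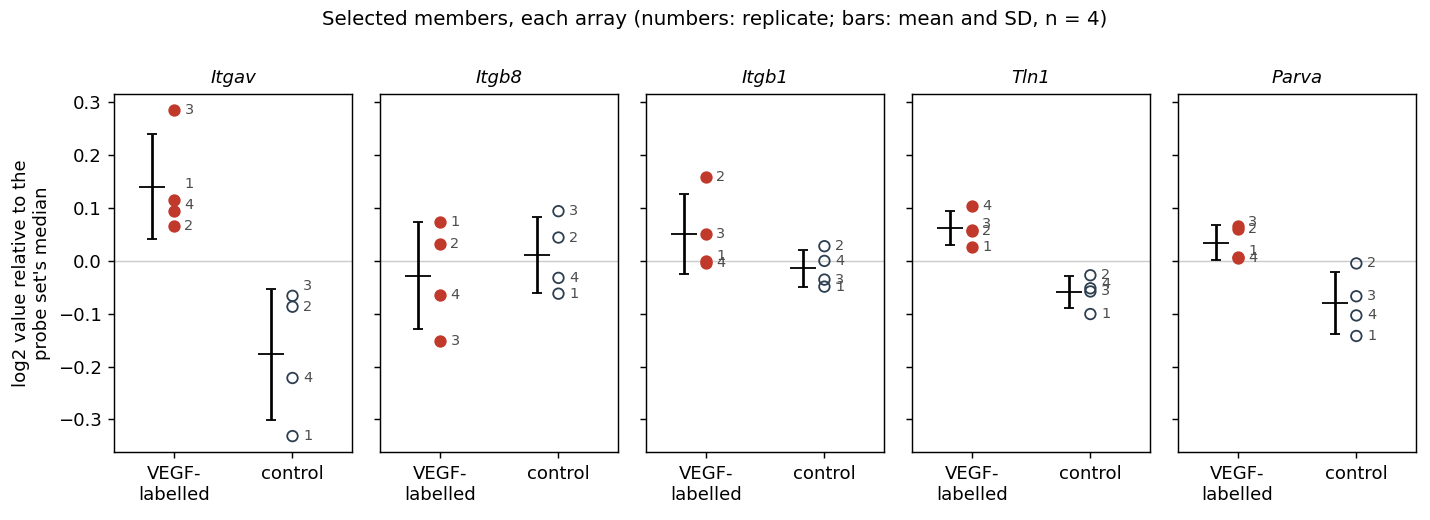
Each array's value (y axis, log2 relative to the probe set's median) of Itgav, its partners Itgb8 and Itgb1, Tln1 and Parva in the VEGF-labelled arrays (left) and control arrays (right), with replicate numbers and mean ± SD bars (n = 4). Itgav, Tln1 and Parva show a gap between the groups, while Itgb8 and Itgb1 overlap.

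The other RGD-binding alpha chains differed less. Itga5, which with Itgb1 forms the classical fibronectin receptor of vessels and migrating cells, ranged from -0.00068 to 0.079 in the VEGF-labelled arrays, against -0.079 to 0.00048 in control. Its groups overlapped only through VEGF 4, which was level with control 2 and control 4. The difference was 0.08 (limma, unadjusted p = 0.052, adjusted p = 0.407), and the difference of Itga5 was 0.043 with the 3 female-pattern arrays left out. Itga2b, the platelet alpha-IIb chain, differed by 0.07, with its lowest value of -0.28 in control 1. Without control 1 the difference of Itga2b was 0.00069. Itga8, the nephronectin receptor chain, differed by 0.018. Of the 6 platelet markers measured 2 were higher, and their list mean was -0.05 to 0.23 in the VEGF-labelled arrays, against -0.026 to 0.085 in control, so this list overlapped as Itga2b did.

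The laminin receptors Itga3, Itga6 and Itga7 did not move as one. Itga6, the laminin receptor chain of neural stem cells and endothelium, was at -0.062, 0.24, 0.24 and 0.016 in VEGF 1 to VEGF 4, against -0.13, -0.05, -0.016 and 0.026 in control 1 to control 4. VEGF 2 and VEGF 3, both with a female pattern, were clear of control, while VEGF 1 and VEGF 4 were within its range. The difference was 0.15 (95% interval -0.017 to 0.32, limma, adjusted p = 0.454). The difference of Itga6 was 0.027 with the 3 female-pattern arrays left out, 0.011 with the radial glia list mean as a covariate and 0.093 with array weights. Itga3, the chain that radial glia and migrating neurons use on laminin, differed by 0.03, and Itga7, known mainly from muscle, by -0.061.

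The collagen receptors had 1 member above 0 and 3 below. Itga1, found on vessels and mural cells, was at 0.18 and 0.31 in VEGF 1 and VEGF 2 but at -0.042 and -0.00056 in VEGF 3 and VEGF 4, against -0.17 to 0.052 in control. The VEGF-labelled group was thus divided, and the difference of 0.15 had an interval of -0.036 to 0.33 (limma, adjusted p = 0.512). The difference of Itga1 was 0.083 without VEGF 2 and also with the 3 female-pattern arrays left out, 0.094 with array weights and 0.059 with the thalamus covariate. It was 0.36 with the radial glia covariate, and with that or the endothelial one it was under an unadjusted p of 0.05. Itga2, a collagen receptor of platelets and epithelia, differed by -0.16, with VEGF 3 at -0.34 and control 2 at 0.25. The difference of Itga2 was -0.071 without VEGF 3 and -0.096 without control 2, and with the thalamus covariate it was -0.26 and under an unadjusted p of 0.05. Itga10 and Itga11, known from cartilage and fibroblasts, differed by -0.021 and -0.069. Of the other pair, Itga4, the VCAM-1 and fibronectin receptor chain of leukocytes and progenitors, differed by 0.11 (interval -0.022 to 0.24), and Itga9, a tenascin receptor chain, by -0.0052. The difference of Itga4 was 0.071 without VEGF 2 and 0.044 with the thalamus covariate.

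None of the 8 beta chains was under an unadjusted p of 0.05 in limma or without overlap. Itgb1, the partner of most alpha chains, was at -7.6e-05, 0.16, 0.05 and -0.0046 in VEGF 1 to VEGF 4, against -0.049, 0.028, -0.035 and 7.6e-05 in control 1 to control 4. VEGF 2 was well above the control range and VEGF 3 slightly above it, while VEGF 1 and VEGF 4 lay within it. The difference of Itgb1 was 0.065, with an interval of -0.034 to 0.16 (limma, adjusted p = 0.615). Without VEGF 2 the difference of Itgb1 was 0.029, and with the 3 female-pattern arrays left out 0.0046. Itgb8, whose only known partner is Itgav, was at 0.073, 0.032, -0.15 and -0.064 in VEGF 1 to VEGF 4, against -0.062, 0.044, 0.094 and -0.032 in control 1 to control 4. The array with the highest Itgav, VEGF 3, had the lowest Itgb8. The Itgb8 difference was -0.039, and its interval of -0.17 to 0.091 does not reach the 0.32 of Itgav, though the 2 differences were not set against each other in a test.

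The remaining partners of Itgav also overlapped. Itgb3, the vitronectin receptor chain of platelets and growing vessels, differed by -0.023 (interval -0.15 to 0.10), and Itgb6, an epithelial activator of TGF-beta, by 0.00072 (-0.075 to 0.077). Itgb5, a vitronectin receptor chain, differed by 0.033 with the widest interval of the group, -0.26 to 0.33. It was at -0.38 in VEGF 3 and -0.18 in control 3, while VEGF 2 and control 2 were at 0.24 and 0.21. Itgb4, which pairs with Itga6 in hemidesmosomes, differed by -0.12, or by -0.066 without VEGF 2 and -0.078 without control 2. The leukocyte chains Itgb2 and Itgb7 differed by -0.018 and 0.031. Of the 14 microglia and macrophage markers, which include leukocyte genes, 10 were higher, with list means of -0.034 to 0.15 in the VEGF-labelled arrays, against -0.15 to 0.065 in control, and their part in these values was not tested.

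Inside the cell, the talin and ILK group was 4 of 5 above 0. Tln1, which binds beta tails and pulls integrins into the active state, was at 0.027, 0.057, 0.058 and 0.10 in VEGF 1 to VEGF 4, against -0.10, -0.027, -0.058 and -0.052 in control 1 to control 4. VEGF 4 was the highest array and control 1 the lowest, and VEGF 1 and control 2 were the nearest across the groups. The mean was 0.062 ± 0.032 in the VEGF-labelled arrays and -0.059 ± 0.031 in control (SD, n = 4 each). The difference of 0.12, or 1.09-fold, had an interval of 0.045 to 0.20 (limma, unadjusted p = 0.0056, adjusted p = 0.243), and the exact permutation p was 0.0286. With the radial glia list mean as a covariate it was 0.083 (limma, unadjusted p = 0.143). Its paralogue Tln2, the talin of muscle and brain, differed by 0.012 (interval -0.09 to 0.11).

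Parva, which binds ILK and F-actin, was at 0.0078, 0.061, 0.065 and 0.0047 in VEGF 1 to VEGF 4, against -0.14, -0.0047, -0.067 and -0.10 in control 1 to control 4. VEGF 4 and control 2 lay just either side of 0, so the gap between the groups was narrow. The difference was 0.11, or 1.08-fold (interval 0.025 to 0.20, limma, unadjusted p = 0.017, adjusted p = 0.31, exact permutation p = 0.0286). In limma it was no longer under an unadjusted p of 0.05 without control 1 (difference 0.093), with the 3 female-pattern arrays left out (0.09), or with a covariate, be it the thalamus list mean (0.082) or the radial glia one (0.059). Ilk itself, the pseudokinase at the centre of the complex, differed by -0.029 (interval -0.10 to 0.042), and Fermt2, kindlin 2, by 0.061 (-0.033 to 0.16). In Fermt2 VEGF 2 and VEGF 3 were at 0.11 and 0.10 and VEGF 1 and VEGF 4 at -0.016 and 0.00015, against -0.06 to 0.031 in control.

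The plaque proteins differed in both directions, by -0.032 to 0.062. Vinculin, Vcl, which reinforces the talin to actin link, differed by 0.04, the scaffold paxillin, Pxn, by -0.032, the force-sensitive LIM protein zyxin, Zyx, by -0.005, and the actin crosslinker alpha-actinin 1, Actn1, by 0.062. In all of these the groups overlapped, and the adjusted p in limma was 0.732 or more. Actn1 had 1 array apart, VEGF 3 at 0.20, while the other VEGF-labelled arrays ranged from -0.031 to 0.021, against -0.071 to 0.063 in control. Averaged per array, the 9 cytoplasmic members were at 0.0075 to 0.041 in the VEGF-labelled arrays, against -0.045 to 0.0066 in control. That average included Tln1 and Parva, which did not overlap by themselves. Averages of the talin and ILK group alone overlapped, at -0.0012 to 0.067 in the VEGF-labelled arrays, against -0.06 to 0.012 in control. Those of the plaque proteins also overlapped, at 0.0016 to 0.045 against -0.026 to 0.022. The 21 integrin subunits averaged -0.043 to 0.046 in the VEGF-labelled arrays, against -0.06 to 0.068 in control.

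Itgb5, Itga11 and Itga8 had a within-group SD larger than their absolute difference, as did members of other roles, such as Itgb8, Tln2, Vcl and Zyx. Within-group SDs (pooled over the groups) ran from 0.024 in Ilk to 0.22 in Itgb5. Itgb5, Itga11 and Itga8 were all low in VEGF 3 (-0.38, -0.32 and -0.19) and below 0 in control 3 (-0.18, -0.13 and -0.11). Subunits named above for vessels did not share this in VEGF 3. Itga6 and Itga5 had their highest values there (0.24 and 0.079), Itgb3 was at 0.0068 and Itga1 at -0.042. In control 3 they were at -0.016, -0.057, -0.044 and -0.17. Endothelial markers were lowest in the same arrays, with list means of -0.24 in VEGF 3 and -0.16 in control 3 and of -0.015 to 0.12 in the other 6 arrays. Meningeal markers were at -0.44 in VEGF 3 and -0.22 in control 3, against -0.016 to 0.16 elsewhere. Positive differences were seen in 4 of 15 endothelial, 6 of 12 meningeal and 4 of 10 mural markers, and the means of all 3 lists overlapped between the groups. The part of these cells in the subunits' values was not tested. The 8 thalamus markers, of neighbouring forebrain tissue, were all higher, with list means of -0.28 to 0.83 in the VEGF-labelled arrays, against -0.41 to 0.32 in control. Control 1 was the lowest array for 10 of the 30 members, and control 2 and VEGF 2 the highest for 8 each.

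**Figure D4:**
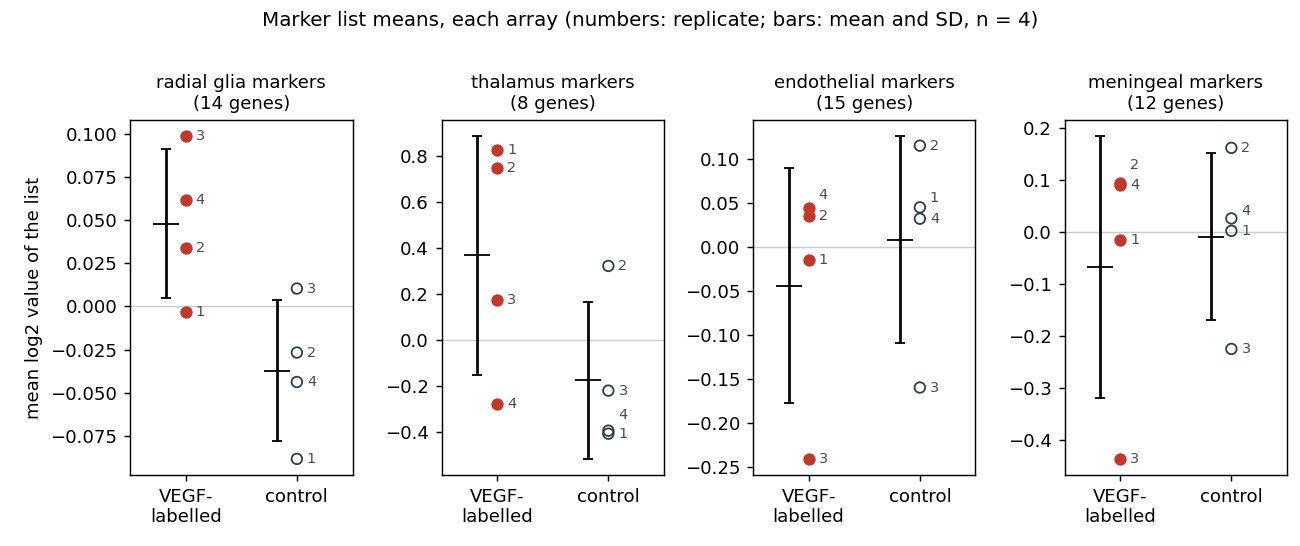
Mean log2 value (y axis, a scale of its own in each panel) of 4 marker lists in each VEGF-labelled array (left) and control array (right), with replicate numbers and mean ± SD bars (n = 4). Radial glia means overlap only between VEGF 1 and control 3, while endothelial and meningeal means are lowest in VEGF 3 and control 3.

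The wider adhesion machinery held about as many higher genes as lower ones. Of 54 further genes of adhesion signalling and actin linkage 50 were measured, 24 higher and 26 lower, with a median difference of -0.0055. At an unadjusted p under 0.05 in limma 3 were higher (6%, against 4.62% of all genes) and 8 lower (16%, against 7.84%), and 0 passed after adjustment. Without overlap were 3 higher (6%, against 2.13% of all genes) and 5 lower (10%, against 4.71%). On the higher side were Rap1b, the small GTPase that activates integrins through talin (0.16), Actn4, the second non-muscle alpha-actinin (0.11), the zyxin relative Lpp (0.099) and Dock1, a Rac activator (0.11). Rap1b was at 0.051, 0.21, 0.049 and 0.074 in VEGF 1 to VEGF 4, against -0.049, -0.069, -0.08 and -0.062 in control 1 to control 4. Its groups did not overlap, nor did those of Actn4 and Lpp. Under its 19 alternatives the difference of Rap1b was 0.12 to 0.19. The unadjusted p, of limma or the methods' t-test, was under 0.05 in each, and the adjusted p was 0.165 or more. With the radial glia list mean as a covariate the difference of Dock1 was 0.022. The 3 probe sets of Lpp tested alone gave a difference of Lpp of 0.046, 0.067 and 0.18.

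The smallest p on the lower side belonged to Bcar1, Rhoa, Elmo1 and Ptk2b. Bcar1, the p130Cas scaffold phosphorylated by focal adhesion and Src kinases, was at -0.07, -0.16, -0.029 and -0.033 in VEGF 1 to VEGF 4, against 0.12, 0.046, 0.029 and 0.11 in control 1 to control 4. The groups did not overlap, and the difference was -0.15 with an SE of 0.0414 (limma, adjusted p = 0.243). Rhoa, the GTPase of stress fibres, differed by -0.13 and did not overlap either. Elmo1, the partner of Dock1, differed by -0.21, and Ptk2b, the relative of focal adhesion kinase known as Pyk2, by -0.17, and VEGF 4 was within the control range in both. Ptk2b is abundant in forebrain neurons, and projection neuron markers were lower in 11 of 12 genes. Their list means were -0.37 to 0.0086 in the VEGF-labelled arrays, against 0.014 to 0.24 in control. Of the 9 marker lists this was the only one whose means did not overlap, and it was not run as a covariate. Whether that list bears on Ptk2b or Elmo1 was not tested. With the radial glia list mean as a covariate the difference of Elmo1 was -0.061 and the difference of Ptk2b -0.087.

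**Figure D5:**
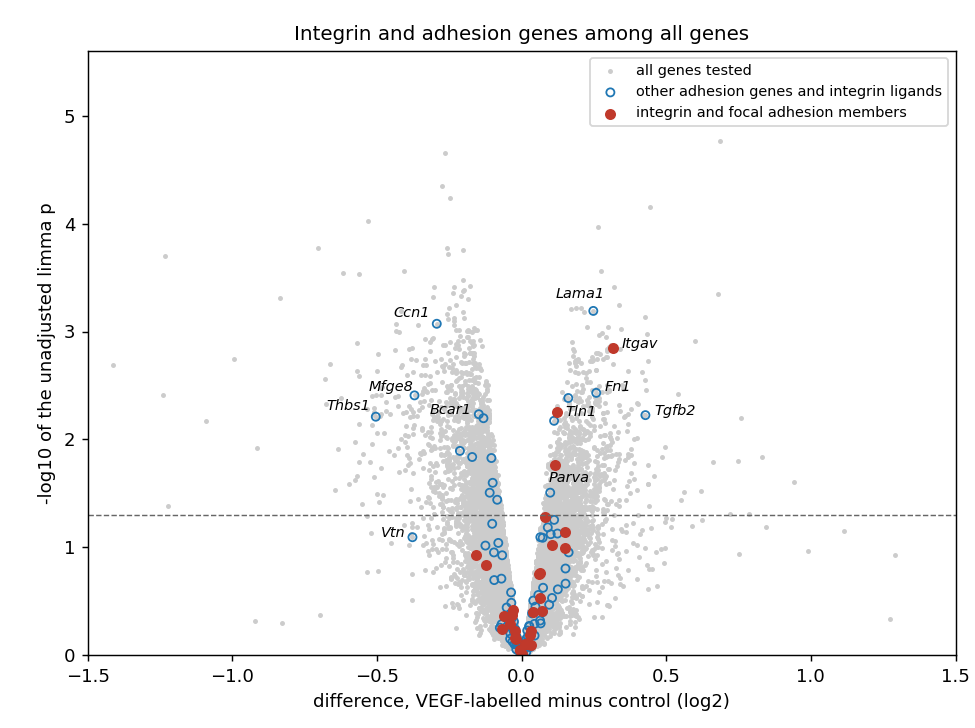
Difference (x axis, log2, VEGF-labelled minus control) against −log10 of the unadjusted limma p (y axis) for all 19938 genes in grey, the 30 members as filled points and the further adhesion genes and integrin ligands as open circles. The dashed line is an unadjusted p of 0.05, above which Itgav, Tln1 and Parva are the only members.

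The ligands of integrins were also mixed in direction. Of 40 listed matrix proteins and other integrin ligands 38 were measured, 18 higher and 20 lower, with a median difference of -0.012. In limma 3 were higher and 3 lower at an unadjusted p under 0.05 (7.89% each, against 4.62% of all genes higher and 7.84% lower), and 0 after adjustment. Fn1, fibronectin, was at 0.037, 0.14, 0.17 and 0.032 in VEGF 1 to VEGF 4, against -0.30, -0.25, -0.075 and -0.032 in control 1 to control 4. The groups did not overlap, and the difference was 0.26 with an SE of 0.0667 (limma, adjusted p = 0.243). With the radial glia list mean as a covariate the difference of Fn1 was 0.14. Lama1, the laminin alpha-1 chain of the early basement membrane, was at 0.15, 0.19, 0.03 and 0.16 in VEGF 1 to VEGF 4, against -0.19, -0.03, -0.097 and -0.14 in control 1 to control 4, without overlap and with a difference of 0.25. Under its 19 alternatives the difference of Lama1 was 0.20 to 0.28. The unadjusted p, of limma or the methods' t-test, was under 0.05 in each, and the adjusted p was 0.127 or more. The laminin beta-2 chain Lamb2 differed by 0.091, and by 0.0058 with the radial glia covariate. Tgfb2, counted here as a TGF-beta ligand held latent in the matrix, differed by 0.43, with VEGF 4 at -0.032 inside the control range of -0.27 to 0.032. Whether integrins bind its latent form was not tested. The difference of Tgfb2 was 0.26 with the radial glia covariate, 0.27 with the thalamus one and 0.28 with the 3 female-pattern arrays left out.

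The ligands of smallest p on the lower side were Thbs1, Ccn1, Mfge8 and Vtn. Thbs1, thrombospondin 1, an inhibitor of vessel growth, was at -0.023, -0.17, -0.31 and -0.065 in VEGF 1 to VEGF 4, against 0.59, 0.16, 0.023 and 0.67 in control 1 to control 4. Control 1 and control 4 were far above the rest, and the groups did not overlap. The difference was -0.50 with an SE of 0.142 (limma, adjusted p = 0.243), and -0.14 with the radial glia list mean as a covariate. Ccn1, the matricellular protein CYR61, differed by -0.29 with no overlap, and by -0.33 to -0.22 under its 19 alternatives. The unadjusted p, of limma or the methods' t-test, was under 0.05 in each, and the adjusted p was 0.105 or more. Mfge8, lactadherin, differed by -0.37 and vitronectin, Vtn, by -0.38, and the groups overlapped in both, through VEGF 4 in Mfge8 and through VEGF 1 and VEGF 4 in Vtn. Mfge8 is also made by radial glia and Vtn by pericytes, and Vtn was at -0.71 in VEGF 3 and -0.25 in control 3, the arrays lowest in mural markers (list means of -0.20 and -0.12, Vtn among the 10). The difference of Vtn was -0.22 without VEGF 3 and -0.061 with the radial glia covariate, which gave a difference of Mfge8 of -0.19.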

How the data were processed

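RNA of embryonic brain cortex was extracted with a Qiagen RNeasy kit and labelled with the Ambion WT Expression and GeneChip WT terminal labelling kits, per the labels' protocols. Affymetrix Expression Console and mm8 appear in the submitters' processing notes; how background was corrected and probes were summarised is not stated there. The deposited values, log2 as far as their range shows, cover 28853 probe sets on 8 arrays, each centred on its median (within 5e-07 of 0). Dim probe sets could therefore not be filtered.

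One symbol was carried by 21789 probe sets, several by 1621 and none by 5443. Older symbols were replaced by way of the Entrez identifier from RefSeq's GRCm38.p6 table. Probe sets of a gene were averaged. The 3 listed names Cyr61, Ctgf and Nov were read as Ccn1, Ccn2 and Ccn3. Groups came from sample titles. The test was limma 3.58.1 in R 4.3.3 (lmFit, eBayes, no covariate, prior of 3.12 beside 6 residual degrees of freedom) and p-values were adjusted over all genes by Benjamini and Hochberg's method; intervals are unadjusted. A single value was also compared by the exact permutation test over 70 arrangements. The fit was tested on simulated data. The number of arrays limits the precision.

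Members, roles and lists were chosen with earlier results of these data known. Every array's value is given for members without overlap or with an unadjusted p under 0.05 and for Itgb1 and Itgav. Further arrays' values were added after they had been seen. Of the adhesion and ligand lists, the 4 genes of smallest p in each direction are named. Alternatives were the replicate block, array centring, quantile normalization, another prior, array weights, the methods' t-test, single probe sets, covariates and leaving arrays out. The thalamus and radial glia covariates and the female-pattern arrays were added after seeing the data.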

Additional observations from a re-analysis of the deposited data

Results flagged for a closer look

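In 60 checks, the 30 members in each group of 4 arrays, 3 values stood far from the others of their group by Dixon's 95% criterion, which is 5% of the checks; chance gives about 1 in 20. Itgb3 was at -0.162 in VEGF 2, against -0.0068 to 0.014 in the other VEGF-labelled arrays. Itga10 was at 0.0467 in VEGF 2, against -0.022 to -0.01 in the others. Itga2 was at 0.253 in control 2, against -0.007 to 0.032 in the other control arrays.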

How the results depend on the processing

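No member passed limma's adjusted threshold under any alternative run, and Itgav, Tln1 and Parva stayed above 0 under all 19 of theirs. Itgav ranged from 0.13 to 0.35 (0.265 to 0.354 with 1 array left out), with an unadjusted p of 0.00058 to 0.118 and an adjusted p of 0.13 to 0.895. The range for Tln1 was 0.083 to 0.14 and for Parva 0.059 to 0.14. The count of members at an unadjusted p under 0.05, 3 as reported, was 5 with the replicate block (Itga1 and Itga6 joined), 5 with the endothelial mean as a covariate, 1 with the radial glia mean as a covariate (Itga1) and 2 to 5 with 1 array left out, the 5 without VEGF 3. The same-numbered arrays had correlations of deviations of 0.052, -0.13, 0.45 and 0.30. Arrays numbered 3 and 4 were closest to their own number in the other group, and those numbered 1 and 2 were not. Whether a shared number marks a shared origin therefore cannot be told. The block changed no other member's call. Members without overlap numbered 7 without the 3 female-pattern arrays and 3 to 5 with 1 array left out, the 5 without VEGF 2 or VEGF 4. The first of these designs sets VEGF 1 and VEGF 4 against control 1, control 2 and control 4. Groups of fewer arrays are more often without overlap by chance, and the share of all genes was not counted there. The 7 therefore cannot be read as a gain over the full design. The count of all genes at unadjusted p under 0.05, 2484 as reported, was 1078 with the radial glia mean as a covariate, 1583 without the 3 female-pattern arrays and 1526 to 2881 with 1 array left out (1526 without control 1, 1627 without control 4). After adjustment it was 0 to 10 genes with 1 array left out, the 10 without VEGF 4 and none of them a member. Of 570 member values under alternatives 53 changed sign, in 16 members, none called. With the radial glia mean as a covariate Actn1 was -0.064, Itga11 0.063, Itga2b -0.038, Itga7 0.073, Itga9 0.089, Itgb2 0.023 and Itgb6 -0.0076. With the thalamus mean Itga3 was -0.068, Itga8 -0.042, Itgb2 0.013, Itgb5 -0.11, Itgb6 -0.018 and Tln2 -0.049. With the endothelial mean Itga11 was 0.0017 and Itga9 0.0044, and the difference of Itgb6 was -0.00585. With the sex index the difference of Itga9 was 0.00707, that of Itgb2 0.0013 and that of Itgb6 -0.0015. Without the female-pattern arrays Itga11 was 0.027, Itgb3 0.00802, Itgb8 0.021 and Tln2 -0.017. With array weights Itga7 was 0.0041, Tln2 -0.00301 and Vcl -0.0048. The difference of Zyx was 2.36e-05 with arrays centred on their medians and 0.00022 with quantile normalization. With 1 array left out the ranges were -0.0404 to 0.00501 for Itga10, -0.15 to 0.029 for Itga11, -0.0077 to 0.081 for Itga3, -0.02 to 0.077 for Itga8, -0.032 to 0.013 for Itga9, -0.051 to 0.0087 for Itgb2, -0.059 to 0.019 for Itgb3, -0.0498 to 0.157 for Itgb5, -0.014 to 0.011 for Itgb6, -0.073 to 0.0025 for Itgb8, -0.026 to 0.035 for Tln2 and -0.025 to 0.014 for Zyx. The cause of these shifts was not tested. Signal over background is unknown, so probe sets that read no expressed gene could not be set aside.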

Other observations

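Of the further integrin genes outside the named group, all 7 that were listed were measured, 3 higher and 4 lower, with differences of -0.068 to 0.028, and none was under an unadjusted p of 0.05 in limma or without overlap. Among them the leukocyte alpha chains Itgal, Itgam, Itgax, Itgae and Itgad, partners of Itgb2 and Itgb7, differed by 0.028, -0.06, -0.0041, 0.028 and 0.012. Itgam, the CD11b chain of microglia, was at 0.049, -0.054, -0.19 and -0.016 in VEGF 1 to VEGF 4, against 0.014, -0.0087, 0.01 and 0.0087 in control 1 to control 4, so VEGF 3 was apart. The integrin-like Itgbl1 and the beta-2 relative Itgb2l differed by -0.068 and -0.024. Of the 9 erythroid markers 8 were higher, with list means of -0.017 to 0.66 in the VEGF-labelled arrays, against -0.15 to -0.0072 in control.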
